A study of Marmota monax with 203 samples.

Results

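The genes described here are 10 classical markers of the unfolded protein response and of the amino acid stress response, followed in woodchuck liver: HSPA5, HSP90B1, DNAJB9, HERPUD1, SDF2L1, XBP1, ATF4, DDIT3, TRIB3 and ASNS. They were taken by symbol from the 17587 genes listed in the liver RNA-Seq files, and all 10 were present in every one of the 203 sequencing runs. The animals were adult male and female woodchucks (Marmota monax) born in captivity and infected as neonates with woodchuck hepatitis virus (WHV) strain WHV7-11, a relative of hepatitis B virus, so that the placebo group was also chronically infected. One arm received subcutaneous placebo (vehicle) and the other recombinant woodchuck interferon alpha (wIFN-α, labelled IFN-alpha) 3 times a week, at 20 μg per animal from week 0 and at 100 μg from week 7 to the end of dosing at week 15. Liver biopsies of weeks 0 and 3 (low dose) and of weeks 7, 11 and 15 (high dose) were taken 6 h after an injection. Those of week -3 preceded treatment and those of weeks 19 and 23 followed it. At weeks -3, 0, 3, 7, 11, 15, 19 and 23 there were 12, 12, 12, 12, 10, 9, 5 and 9 placebo-treated and 11, 11, 9, 9, 8, 8, 6 and 6 wIFN-treated animals, 149 biopsies in all. Animal M1004, assigned to wIFN-α and judged by the authors to be probably clearing the virus on its own, was left out. The dose rose with time in the same animals, so dose and duration of treatment cannot be told apart.

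When proteins fail to fold in the endoplasmic reticulum (ER), the membrane sensors IRE1 (the product of ERN1), PERK (EIF2AK3) and ATF6 release the chaperone BiP and signal to the nucleus. IRE1 splices the XBP1 message, and the resulting factor, together with cleaved ATF6, drives genes for chaperones and for ER-associated degradation. PERK phosphorylates the initiation factor eIF2α, which slows translation in general but favours translation of ATF4. The kinases GCN2, PKR and HRI reach the same point from amino acid shortage, double-stranded RNA and heme deficiency, and ATF4 then turns on genes for amino acid synthesis, transport and tRNA charging. Hepatocytes secrete most plasma proteins and carry an extensive ER, so these genes are active in normal liver. Gene counts do not separate the spliced from the unspliced XBP1 message, and they give neither protein levels nor phosphorylation.

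The biopsies compared held 12072840 to 84805845 reads on genes (median 28754894). MX1 and ISG15, which interferon induces, were above every placebo value in all wIFN-treated animals at weeks 0, 7, 11 and 15 and in 8 of 9 at week 3. The exception was F1013, whose mean over 10 interferon-stimulated genes at week 3 lay 0.22 (log2) below the placebo mean, and values without this biopsy are given where a call at week 3 is described. In 3 biopsies over 10% of the reads fell on 20 skeletal muscle genes. Those of F1016 (placebo) and F1018 (wIFN-α) at week -3 had 13.7% and 13.4% muscle reads. Their 12 hepatocyte markers summed to 505 and 328 CPM (the counts-per-million scale, over reads on genes). In the 146 biopsies under the 10% limit the sum was 60727 to 231001 CPM, so the biopsies of F1016 and F1018 at week -3 are not liver by their markers. F1021 (placebo) at week 3 had 11.5% muscle reads and 48922 CPM of hepatocyte markers. Below, biopsies with muscle are these 3, and without muscle means without them. Some of the 146 others also held muscle reads, up to 84028 CPM on the 20 genes in 1 wIFN-treated animal at week 0. The 2 runs of M1008 (placebo) at week 15 carry the same barcode but differed in SDF2L1, at 5.01 and 2.26 CPM. All weeks held biopsies from 6 or 7 sequencing lane numbers. Of the 203 runs, 196 share both barcode and lane number with a run of another biopsy, so 1 number covers several physical lanes, and comparisons within a lane number or with it as a covariate do not hold the batch fixed. In a bulk biopsy fewer cells of a type and less RNA per cell cannot be told apart, and this holds for each difference below.

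Compared per length, the medians of TRIB3 and ASNS lay below those of the other 8 genes in the 81 placebo biopsies, while ATF4 and DDIT3 stood among the ER genes. HSP90B1, which encodes the ER chaperone GRP94, was highest at a median of 194 RPKM (CPM divided by gene length in kilobases), followed by XBP1 at 132, HSPA5, which encodes BiP, at 77.6, HERPUD1, a component of the ER degradation machinery, at 70.8, and ATF4 at 53.9. DNAJB9, an ER co-chaperone of BiP that restrains IRE1, had a median of 32.9 RPKM, DDIT3, which encodes the transcription factor CHOP, 17.8, and SDF2L1, a partner of ER DnaJ proteins, 11.3. TRIB3, a pseudokinase induced by ATF4 and CHOP, and ASNS, the asparagine synthetase, were lowest at 3.86 and 1.51 RPKM. Ranges of neighbours in this order overlapped throughout. HERPUD1 was the steadiest gene, at 34.4 to 120 RPKM, a 3.5-fold range, and SDF2L1 the most variable, at 2.01 to 64.1 RPKM, a 32-fold range whose lowest value is the muscle-rich biopsy of F1016. The lowest TRIB3 value, 0.411 RPKM, is the same biopsy.

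In placebo-treated animals 5 of the genes were higher over the pooled weeks of dosing, when biopsies followed an injection, than over the weeks outside them. Over weeks 0 to 15, against weeks -3, 19 and 23, DNAJB9 was 1.73-fold higher (log2 difference 0.79 ± 0.11 SE, adjusted p = 1.12e-09), XBP1 1.53-fold (0.61 ± 0.12, 3.18e-05), HSPA5 1.36-fold (0.45 ± 0.12, 0.00115), HSP90B1 1.29-fold (0.36 ± 0.08, 0.000243) and HERPUD1 1.21-fold (0.28 ± 0.09, 0.00726). No gene passed as lower, and the background was 15.7% higher and 19.4% lower among all 16232 genes tested in this edgeR fit of all weeks. That fit treats repeated biopsies of 1 animal as independent. With the animal as a replicate block the 5 genes above passed too, and ASNS (0.43, adjusted p = 0.0169) and ATF4 (0.24, 0.0117) as well. The share of all genes that passed with the block is not given. SDF2L1, DDIT3 and TRIB3 had differences of 0.10, -0.10 and 0.06. Within the 11 placebo-treated animals without a muscle-rich biopsy, XBP1 was higher at week 0 than at week -3 in all 11 (mean difference 0.68 ± 0.43 SD on the log2(CPM + 1) scale), DNAJB9 in 10 (0.83 ± 0.52), HSPA5 in 9 (0.48 ± 0.61), HSP90B1 in 9 (0.26 ± 0.42) and HERPUD1 in 6 (0.02 ± 0.26). Later weeks of dosing differed from this. HSPA5 lay below week -3 by means of -0.41, -0.41 and -0.87 at weeks 7, 11 and 15, and HSP90B1 by -0.19, -0.34 and -0.62, with 0 of 8 animals higher at week 15 for either gene. The mean of HSPA5 at week 15, 218 CPM, was close to those of weeks 19 and 23 (219 and 215 CPM). XBP1 differed from week -3 by 0.11, 0.15, -0.09 and 0.05 at weeks 3, 7, 11 and 15, and DNAJB9 by 0.72, 0.67, 0.53 and 0.20. Time of sampling after an injection and study week change together in this contrast and cannot be told apart. In the same contrast 10 of 12 proliferation genes were higher, 5 of 12 B and plasma cell genes lower, and the skeletal muscle genes had a median difference of 1.94 with 1 of 20 passing as higher. Their part in the difference was not tested. Without the biopsies with muscle 6 genes passed, the sixth being ATF4 at 0.26 (adjusted p = 0.00667).

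A second pattern in the placebo animals was a lower level at later weeks, described here without a test. SDF2L1 ranged from 8.24 to 70.4 CPM (median 26.4) in the 34 placebo biopsies of weeks -3 to 3 without muscle, and from 2.81 to 19.3 CPM (median 8.89) in the 45 of weeks 7 to 23, a ratio of medians of 2.97. HSPA5 had a ratio of 1.96, with medians of 493 and 251 CPM, and ASNS one of 1.94, with 10.4 and 5.36 CPM. In the other 7 genes the early median was 1.23 to 1.5 times the late one. Early and late ranges overlapped for all 10 genes. An effect of wIFN-α is therefore read only against placebo of the same week.

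**Figure D1:**
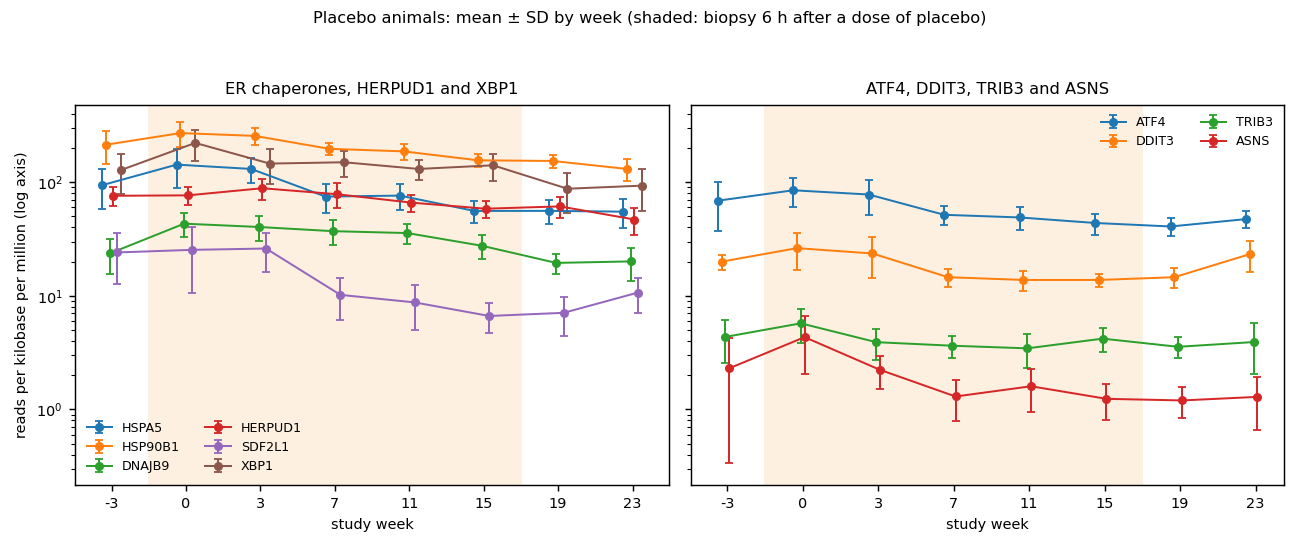
Level of each gene in placebo-treated animals by study week, as mean ± SD in RPKM on a log axis (n = 12, 12, 12, 12, 10, 9, 5 and 9 at weeks -3 to 23), with weeks of dosing shaded. DNAJB9 stands higher from week 0 to week 15 than at weeks -3, 19 and 23, XBP1 is highest at week 0, and SDF2L1 is lower from week 7 on.

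Against placebo of the same week, wIFN-α moved few of the 10 genes and moved them modestly. The call required a fold change above 1.5 and an adjusted p under 0.05 in the edgeR quasi-likelihood test. At week 0, 6 h after the first dose, 3 genes were called higher (XBP1, DDIT3 and TRIB3) and none lower, against 10.3% higher and 8.15% lower among all genes tested. At week 3, 1 was called higher (XBP1) and 1 lower (SDF2L1), against 7.24% and 3.54%. None was called at weeks 7, 11 or 15, where 11.4%, 12.6% and 13.4% of all genes were called higher and 10.1%, 7.98% and 8.83% lower. At those weeks 5, 2 and 2 of the 10 had an unadjusted p under 0.05. Among all genes it was 7894 of 14868, 6916 of 14966 and 7372 of 14943. DESeq2 called none of the 10. At an adjusted p under 0.05 with any fold change, 3, 2, 4, 2 and 1 of the 10 passed at weeks 0, 3, 7, 11 and 15, against 34.6%, 19.4%, 46.6%, 37.3% and 41.5% of all genes. These shares lie close to the background at weeks 0, 3 and 7 and below it at weeks 11 and 15. The median log2 fold change of the 10 genes lay between -0.15 and 0.25 at the weeks of dosing.

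**Figure D2:**
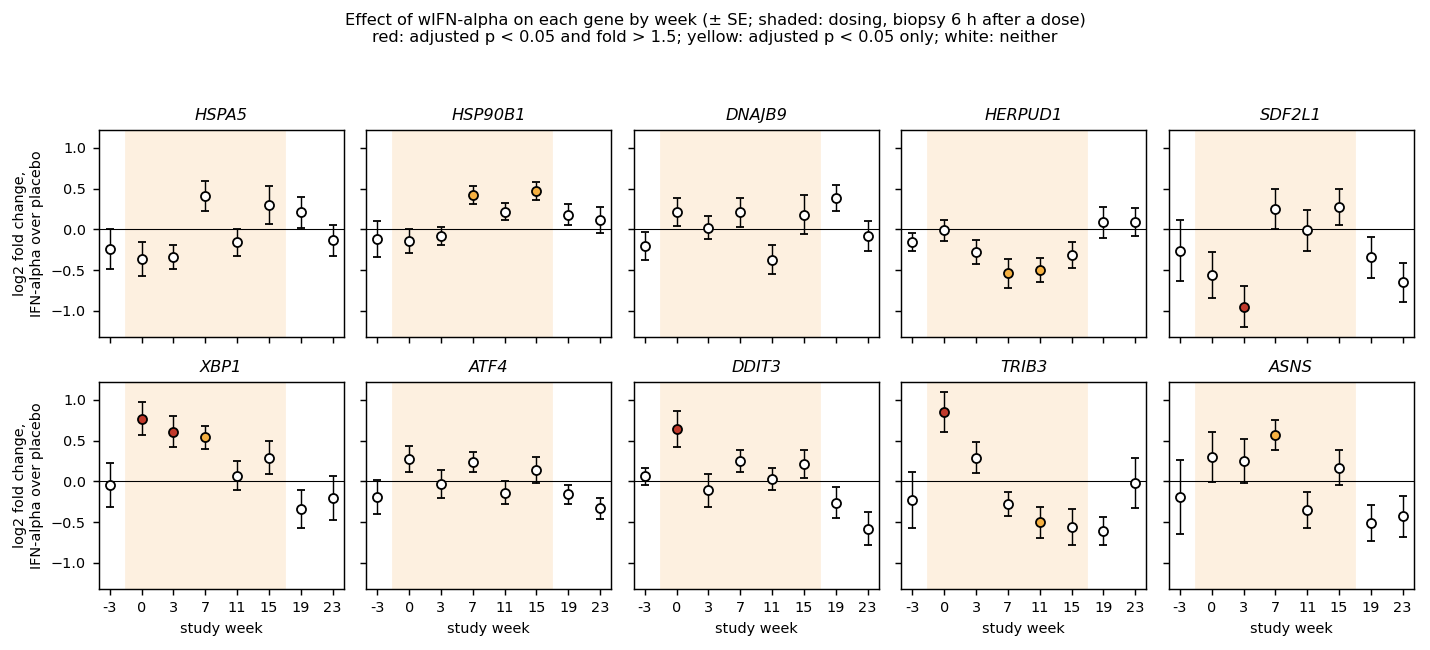
Log2 fold change of wIFN-treated over placebo-treated animals (± SE) for each gene by study week, with weeks of dosing shaded. Red points are called, yellow points pass the adjusted p alone, white points pass neither. XBP1 is called at weeks 0 and 3, DDIT3 and TRIB3 at week 0, and SDF2L1, below 0, at week 3.

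XBP1 showed the most persistent increase. At week 0 the 11 wIFN-treated animals ranged from 596 to 1972 CPM (median 1090) and the 12 placebo-treated animals from 288 to 1033 CPM (median 644). The ranges overlapped, with 6 wIFN-treated animals above all placebo values and 10 of 11 above the placebo median. The log2 fold change was 0.77 ± 0.20, a 1.71-fold difference (adjusted p = 0.00337). XBP1 was higher in the wIFN-treated arm at all 5 lane numbers that held both arms at week 0, by 0.48 to 1.03 on the log2(CPM + 1) scale. Against their own week -3 value, all 10 wIFN-treated animals without a muscle-rich biopsy were higher at week 0 by a mean of 1.44 ± 0.56 (SD), where the 11 placebo-treated animals were higher by 0.68.

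At week 3 the difference in XBP1 was 0.61 ± 0.19 (1.53-fold, adjusted p = 0.026), with values of 428 to 1050 CPM (median 675) against 190 to 839 CPM (median 423). All 9 wIFN-treated animals exceeded the placebo median. Its fold change stood at the edge of the call: without the muscle-rich F1021, which had the lowest XBP1 value of that week, it was 0.55 (adjusted p = 0.0223), and without M1007 it was 0.51 (0.0617). Leaving out F1022, M1003 or M1009 or including M1004 also ended the call, at 0.54 to 0.58. Without F1013 it was 0.66 (adjusted p = 0.0171). With the animal as a replicate block and effects taken relative to week -3, XBP1 at week 3 was 0.65 (adjusted p = 0.11), and at week 0 it was still called, at 0.81 (0.0202). At week 7 XBP1 passed at a lower fold change (0.54 ± 0.14, adjusted p = 0.00276), and all 9 wIFN-treated animals, at 522 to 859 CPM, lay above the placebo median of 426 CPM. It did not pass there with the replicate block (0.59, adjusted p = 0.124), and without M1009 it was called at 0.60. At weeks 11 and 15 it did not pass (0.07 ± 0.18 and 0.29 ± 0.20).

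Plasma cells express XBP1 and the ER chaperones at high levels, so the 12 B and plasma cell genes are given beside them. At week 0 these genes summed to 45.5 to 224 CPM in wIFN-treated and 102 to 254 CPM in placebo-treated animals, and 1 of 11 tested was called higher. At week 15 they summed to 100 to 660 against 60.7 to 339 CPM, with 5 of 11 called higher. The part of these cells in the XBP1 values was not tested.

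Of the ER chaperones and co-chaperones HSPA5, HSP90B1, DNAJB9 and SDF2L1 and of HERPUD1, 1 was called at a week of dosing, SDF2L1 at week 3. HSPA5 had log2 fold changes of -0.36 ± 0.21 at week 0 and -0.34 ± 0.15 at week 3, then 0.41 ± 0.18 at week 7, -0.16 ± 0.17 at week 11 and 0.30 ± 0.23 at week 15, and passed at none of them (adjusted p = 0.0724 to 0.486). At week 3, 6 of 12 placebo values of HSPA5 lay above all wIFN-treated values, and at week 7 all 4 lane numbers with both arms had the higher level in the wIFN-treated arm, by 0.15 to 1.27. HSPA5 was called at week 7 with the replicate block (0.68, adjusted p = 0.0394) and with lane number as a covariate (0.60, 0.045).

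HSP90B1 was higher at weeks 7 and 15 of the high dose, though by less than 1.5-fold. At week 7 the wIFN-treated animals had 528 to 996 CPM (median 687) and the placebo-treated animals 455 to 688 CPM (median 536), a log2 fold change of 0.42 ± 0.11 (adjusted p = 0.00332). At week 15 the values were 443 to 789 CPM (median 604) against 308 to 490 CPM (median 457), with 7 of 8 wIFN-treated animals above all placebo values (0.47 ± 0.11, 1.39-fold, adjusted p = 0.00291). The exception was F1018, at 443 CPM. At week 11 it did not pass (0.22 ± 0.11, adjusted p = 0.122). All 4 lane numbers with both arms had the higher level in the wIFN-treated arm at weeks 7, 11 and 15. With the replicate block HSP90B1 was called at week 15 (0.62, adjusted p = 0.0159) and passed at a lower fold change at week 7 (0.51, 0.0421). At weeks 0 and 3 its fold changes were -0.14 ± 0.15 and -0.08 ± 0.11.

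SDF2L1 was lower at week 3. There the wIFN-treated animals had 6.85 to 21.4 CPM (median 16.6) and the placebo-treated animals 12.3 to 48.1 CPM (median 28.6). Of the 12 placebo values 9 exceeded all wIFN-treated values, and the ranges overlapped in the rest. The log2 fold change was -0.95 ± 0.25, or 0.519-fold (adjusted p = 0.0095). It was -0.96 without F1013 (adjusted p = 0.0115) and -0.83 without the muscle-rich F1021 (0.0186), called in both cases. The 20 muscle genes had a median sum of 7334 CPM in the placebo-treated and 368 CPM in the wIFN-treated animals at week 3, with a median log2 difference of -1.9 and none called, and their part in the differences of SDF2L1 and XBP1 at that week was not tested beyond leaving out F1021. The call was lost with lane number as a covariate (-0.63, adjusted p = 0.214) and with the replicate block (-0.60, 0.212). Within lane numbers the differences ran from -0.97 to 0.38, and 1 of 4 was positive. At week 0 the difference was -0.56 ± 0.28 (adjusted p = 0.13), negative at all 5 lane numbers, and from week 7 to week 15 it lay between -0.01 and 0.28.

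HERPUD1 was lower at weeks 7 and 11 of the high dose, again by less than 1.5-fold on average. At week 7 it was at 73.3 to 194 CPM (median 103) against 104 to 236 CPM (median 158), with 5 of 9 wIFN-treated animals below all placebo values (-0.54 ± 0.18, adjusted p = 0.0156). At week 11 it was at 64.2 to 147 CPM (median 98.4) against 86.5 to 175 CPM (median 152), and no wIFN-treated animal exceeded the placebo median (-0.50 ± 0.15, adjusted p = 0.0153). Neither week passed with the replicate block (-0.42, adjusted p = 0.072, and -0.41, 0.099). Leaving out F1020, F1022 or M1010 at week 7, or F1022 at week 11, lifted HERPUD1 over the fold change of the call, at -0.66 to -0.59. Within lane numbers HERPUD1 was lower at all 4 in both weeks. Its difference at week 15, -0.31 ± 0.16, did not pass. DNAJB9 passed at no week of dosing, with differences of -0.37 to 0.21.

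**Figure D3:**
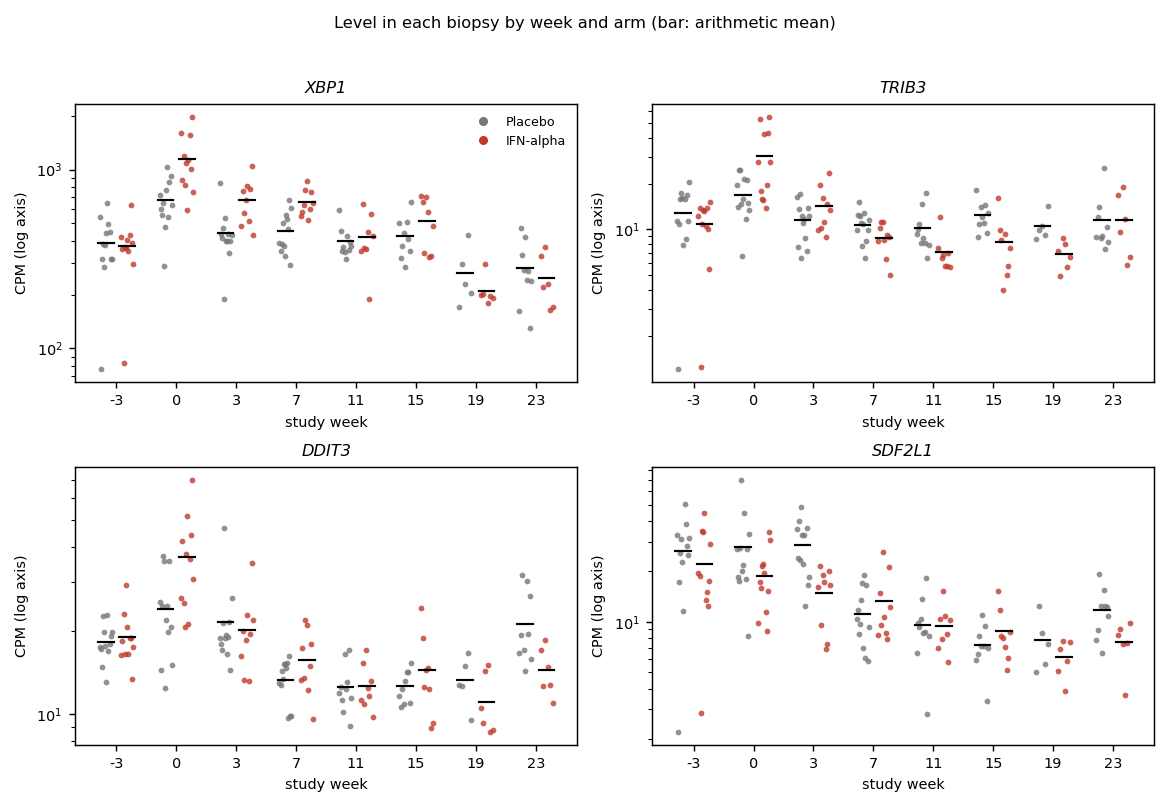
Level of XBP1, TRIB3, DDIT3 and SDF2L1 in each biopsy, in CPM on a log axis, by study week and arm, with the arithmetic mean as a bar. At week 0 the wIFN-treated animals spread upward from the placebo range for XBP1, TRIB3 and DDIT3, at week 3 most placebo values of SDF2L1 (9 of 12) lie above all wIFN-treated values, and the isolated low points at week -3 are the biopsies of F1016 and F1018.

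On the ATF4 side of the response, ATF4 itself did not pass at any week of dosing, with differences of -0.14 to 0.27. At week 0 its levels were 195 to 344 CPM in wIFN-treated and 88.9 to 286 CPM in placebo-treated animals. The difference at week 0 was 0.49 with the replicate block (adjusted p = 0.0432), under the fold change of the call. ATF4 is regulated largely by translation, which these data do not measure.

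DDIT3 and TRIB3, which both lie downstream of ATF4, were higher after the first dose. DDIT3 was at 20.6 to 70.1 CPM (median 36.3) against 12.4 to 37.1 CPM (median 23.2), with 5 of 11 wIFN-treated animals above all placebo values and 9 above the placebo median. The log2 fold change of DDIT3 was 0.64 ± 0.22 (1.55-fold, adjusted p = 0.0258). The call was lost without F1023 (0.57), F1024 (0.57) or M1007, the animal with the highest value (0.50, adjusted p = 0.0659), with the replicate block (0.54, 0.0339) and with lane number as a covariate (0.49, 0.121). Within lane numbers 4 of 5 differences were positive, from -0.21 to 0.85. At weeks 3 to 15 the differences of DDIT3 were -0.11 to 0.25 and none passed.

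TRIB3 lay above placebo at week 0 and below it at weeks 11 and 15, when some animals of week 0 were no longer biopsied. At week 0 it was at 13.8 to 54.8 CPM (median 27.6) against 6.73 to 24.7 CPM (median 15.3), with 6 of 11 wIFN-treated animals above all placebo values and 10 above the placebo median (0.85 ± 0.25, 1.80-fold, adjusted p = 0.0112). With the replicate block it was called at 0.94 (adjusted p = 0.0159), and with lane number as a covariate it did not pass (0.56, 0.125). Lane numbers gave -0.79 to 1.11, positive in 4 of 5. At week 11 it passed at a lower level (-0.50 ± 0.19, adjusted p = 0.0454), with 5.63 to 12.2 CPM against 6.46 to 17.4 CPM. At week 15 the values were 4.02 to 16.1 CPM (median 8.01) against 8.87 to 18.1 CPM (median 12.0), and 5 of 8 wIFN-treated animals lay below all placebo values. The highest week 0 values were those of M1007 (54.8 CPM), F1014 (53.4 CPM), M1006 (42.9 CPM) and F1023 (42.4 CPM). Of these animals only F1014 had biopsies at weeks 11 and 15. The paper reports that M1006 was euthanized for deteriorating health and that F1023 and M1007 died during the study. It relates the death of F1023 to likely severe pneumonia. The part of illness in the week 0 values was not tested. The part of this change of animals in the difference between weeks was not tested.

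The difference of TRIB3 at week 15, -0.56 ± 0.22, fell just short of the threshold (adjusted p = 0.0531). It was called with sex (-0.61, adjusted p = 0.0333) or lane number (-0.80, 0.00157) as a covariate, with M1004 included (-0.60, 0.0286), and without F1013, F1014, F1016 or M1008 (-0.79 to -0.61). It was not with the replicate block (-0.30, 0.567), and there the week 11 difference was -0.21 (0.698). All lane numbers with both arms showed the lower level in the wIFN-treated arm at weeks 7, 11 and 15.

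ASNS passed once, at week 7, where the wIFN-treated animals had 7.29 to 11.5 CPM (median 8.17) and the placebo-treated animals 2.34 to 10.6 CPM (median 5.22). All 9 wIFN-treated values exceeded the placebo median, and 9 of 12 placebo values lay below all of them (0.57 ± 0.18, 1.48-fold, adjusted p = 0.015). Leaving out any 1 of F1013, F1014, F1019, M1002, M1005 and M1009 lifted it over the fold change of the call, at 0.59 to 0.67. It did not pass with the replicate block (0.81, adjusted p = 0.0845). At weeks 0, 3, 11 and 15 the differences were 0.30, 0.25, -0.35 and 0.17.

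Whether the effect changed with dose and duration was addressed by subtracting the average effect of weeks 0 and 3 from that of week 15. The main fit of all weeks treats repeated biopsies of 1 animal as independent. In it only TRIB3 passed, at -1.15 ± 0.32 (adjusted p = 0.03), against 2.26% of all genes. In this test SDF2L1 had a difference of 1.02 ± 0.37 (adjusted p = 0.132), HSPA5 0.63 ± 0.26 (0.207) and HSP90B1 0.55 ± 0.19 (0.0934), all toward a higher effect at week 15. With the animal as a replicate block SDF2L1 (1.15, adjusted p = 0.00995), HSP90B1 (0.60, 0.0261) and TRIB3 passed. In the same fit without the biopsies with muscle HSPA5 passed too (0.66, adjusted p = 0.0359), with SDF2L1 at 1.15, HSP90B1 at 0.62 and TRIB3 at -1.0. The share of all genes that passed in these block fits is not given, so their counts have no background beside them. Repeated dosing at 20 μg, as the effect at week 3 minus that at week 0, gave no gene that passed in edgeR (1 of 10 at an unadjusted p under 0.05), against 2.4% of all genes. The largest difference in size was that of DDIT3, -0.73 ± 0.23 (adjusted p = 0.0745).

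Outside treatment no gene was called. At week -3, 0% of all genes were called by edgeR (130 of 14963 at an unadjusted p under 0.05, and 0 by DESeq2), the 10 differences ran from -0.26 to 0.06, and none had an unadjusted p under 0.05. At weeks 19 and 23 again 0% of all genes were called, with 1859 and 2416 genes at an unadjusted p under 0.05 and 87 and 35 called by DESeq2. Of the 10 genes, 3 had an unadjusted p under 0.05 at each of these weeks, and DESeq2 called none of the 10. When the counts of both follow-up weeks were summed for each of 9 placebo-treated and 6 wIFN-treated animals, edgeR called none of the 10 and 0.287% of all genes. At an unadjusted p under 0.05 there were 3 of the 10, and 4206 of all 15690 genes. DDIT3 and SDF2L1 had the largest differences, at -0.60 ± 0.17 (adjusted p = 0.0707) and -0.64 ± 0.21 (0.0879). DESeq2 called both, at -0.59 (0.0197) and -0.63 (0.0397), and it called 756 of all genes in this comparison. Both were also called in edgeR with M1004 included (-0.63 and -0.70) and without M1001 (-0.65 and -0.71), and DDIT3 without M1011 (-0.67). With the animal as a replicate block and effects relative to week -3, neither passed: DDIT3 was -0.27 at week 19 and -0.47 at week 23 (adjusted p = 0.974 and 0.33), and SDF2L1 was 0.20 and -0.07 (0.999 and 0.962). At week 23 DDIT3 was at 10.9 to 18.5 CPM in 6 wIFN-treated and 14.2 to 31.7 CPM in 9 placebo-treated animals, and none of the former exceeded the placebo median of 19.3 CPM. Of the 9 placebo-treated animals 5 had been biopsied at both weeks, against all 6 wIFN-treated animals. In placebo-treated animals the means at weeks 19 and 23 were 13.3 and 21.2 CPM for DDIT3 and 7.8 and 11.8 CPM for SDF2L1. In wIFN-treated animals they were 11.1 and 14.4 CPM and 6.15 and 7.62 CPM. The summed differences therefore also carry an unequal mix of weeks between the arms, and its part in them was not tested.

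The other genes of these pathways were followed in 6 lists. The shares of all genes called higher at weeks 0, 3, 7, 11 and 15 were 10.3%, 7.24%, 11.4%, 12.6% and 13.4%. Those called lower were 8.15%, 3.54%, 10.1%, 7.98% and 8.83%. With any fold change, 34.6%, 19.4%, 46.6%, 37.3% and 41.5% of all genes passed the adjusted p in either direction. Of 22 ER folding and disulfide genes, 1 was called at the weeks of dosing: CRELD2, an ER folding factor, was lower at week 3 (-1.09 ± 0.31, adjusted p = 0.0158). At an adjusted p under 0.05 with any fold change, 2, 0, 8, 4 and 4 folding genes were higher and 3, 4, 1, 2 and 1 lower at weeks 0, 3, 7, 11 and 15. CRELD2 also passed the test of week 15 against weeks 0 and 3 (1.22 ± 0.36, adjusted p = 0.044), and it was named after its values were seen. Of 22 genes for ER-associated degradation and translocation, edgeR and DESeq2 both called 0 at each week of dosing. Of these 22, 7, 5, 7, 9 and 6 had an unadjusted p under 0.05 at weeks 0, 3, 7, 11 and 15. Among all genes it was 6290 of 14700, 5019 of 15006, 7894 of 14868, 6916 of 14966 and 7372 of 14943. The degradation genes that passed the adjusted p with a smaller fold change were all lower at weeks 0 (7 genes) and 3 (1 gene). At weeks 7, 11 and 15 they were 3, 2 and 3 in each direction. By the adjusted p alone, 11 of 22 folding genes and 14 of 22 degradation genes were higher in placebo animals at weeks 0 to 15 than outside them, by at most 0.58 on the log2 scale, and 2 and 0 were lower. Among all genes 15.7% were higher and 19.4% lower in that contrast.

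Among 14 stress sensors and eIF2 factors, ERN1, which encodes IRE1, was called higher at all 5 weeks of dosing. At week 0 ERN1 was at 113 ± 26.0 CPM (SD, n = 11) against 50 ± 11.9 CPM (n = 12), a 2.27-fold difference (1.18 ± 0.14, adjusted p = 2.51e-07), and at week 15 at 76.8 ± 17.5 CPM against 43.1 ± 5.75 CPM (0.86 ± 0.12, 2.19e-05). At weeks 3, 7 and 11 its difference was 0.81, 0.81 and 0.98. The other calls, both named after their values were seen, were CREB3L3, a liver ER-bound factor, higher at week 7 (0.72), and EIF2AK3, which encodes PERK, lower at week 11 (-0.71 ± 0.15, adjusted p = 0.00131).

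ATF4 target genes moved in both directions. Of 29 tested, wIFN-α gave 6 calls above and 2 below placebo at week 0, 3 and 3 at week 3, 6 and 5 at week 7, 5 and 4 at week 11, and 6 and 4 at week 15. ATF3, a stress-induced transcription factor, was at 38.7 ± 14.4 CPM (SD) in wIFN-treated and 8.25 ± 7.94 CPM in placebo-treated animals at week 0 (4.69-fold) and was 6.21-fold higher at week 15. GDF15, a stress hormone, was 3.41-fold higher at week 0, and MTHFD2, a mitochondrial folate enzyme, 3.83-fold higher at week 15. The 2 called lower at week 0 were PSAT1, an enzyme of serine synthesis, at 0.605-fold and PYCR1, an enzyme of proline synthesis, at 0.551-fold. At week 15 the lowest were ALDH1L2, another mitochondrial folate enzyme, at 0.555-fold and EIF4EBP1, a repressor of translation, at 0.577-fold.

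Of 18 cytosolic aminoacyl-tRNA synthetase genes, AARS was called higher at all 5 weeks of dosing and WARS at 4 of them. WARS, for tryptophan, is also an interferon-induced gene and was 2.20-fold higher at week 0 and 3.19-fold at week 15. AARS, for alanine, was at 684 ± 194 against 324 ± 89.1 CPM at week 0 (2.12-fold, adjusted p = 1.81e-05) and 1.92-fold higher at week 15. The other 16 synthetases were called at none of these weeks.

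The list of 18 heat shock genes is mainly cytosolic but also holds HSPD1, which encodes a mitochondrial chaperonin. Of these genes up to 11 were called higher in 1 week: 9 at week 0, 1 at week 3, 11 at week 7, 8 at week 11 and 4 at week 15. At each of weeks 11 and 15, 1 was called lower. HSPA1A was 6.28-fold and HSPA1B 6.06-fold higher at week 0, although these near-identical genes share reads and their split is uncertain. HSPA1A varied widely between animals, at 303 ± 417 CPM against 47.6 ± 65.4 CPM (SD). DNAJA1 (2.20-fold) and CHORDC1 (1.90-fold) had the largest increases of the list at week 15, and HSPA1L was the 1 gene called lower (0.394-fold). The median log2 fold change of this list was 0.86 at week 0 and 0.89 at week 7, where that of all genes tested was -0.008 and -0.028, and that of the ER folding list -0.16 and 0.19. At weeks 3, 11 and 15 the medians were 0.14, 0.33 and 0.23 for heat shock and -0.11, 0.04 and 0.22 for ER folding. The lists are described by their counts and medians, and a difference between lists was not tested.

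**Figure D4:**
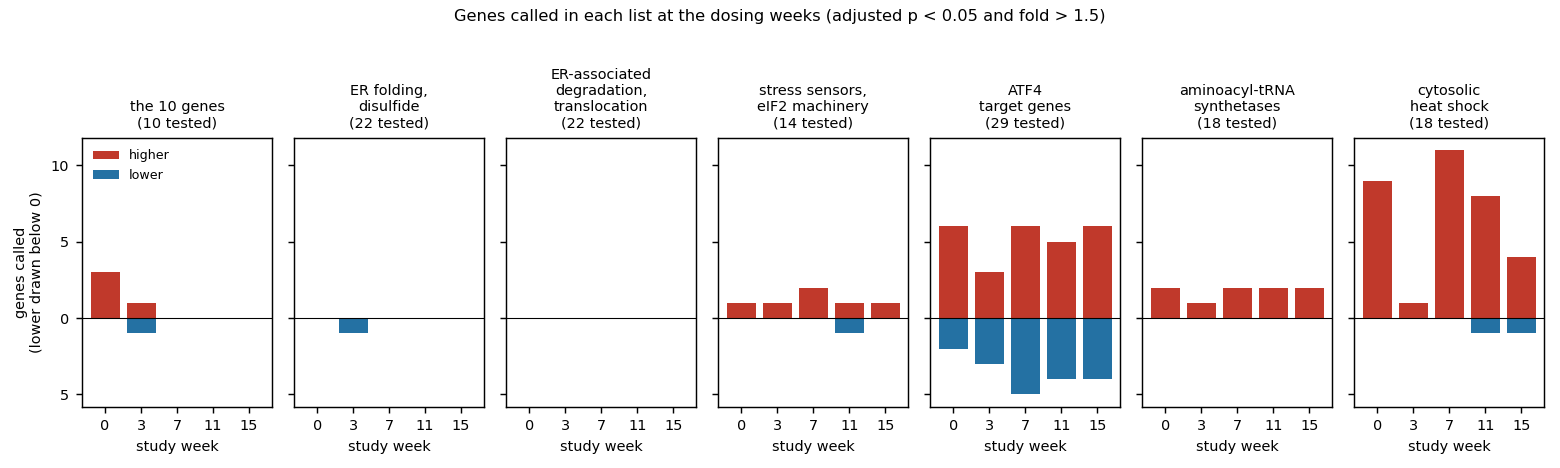
Number of genes called higher (red) and lower (blue, drawn below 0) in wIFN-treated animals at weeks 0, 3, 7, 11 and 15, for the 10 genes and for 6 related lists, with the genes tested in each list in parentheses. The heat shock list reaches 11 called at week 7, and the list for ER-associated degradation has none.

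Other cell types and cell division also moved with treatment. Of 12 proliferation genes, wIFN-treated animals had 7 called lower at week 0 and 11 called higher at both weeks 11 and 15, where their summed level was 174 to 435 and 120 to 347 CPM in wIFN-treated against 125 to 175 and 122 to 157 CPM in placebo-treated animals. The 8 T cell genes summed to 101 to 205 CPM against 41.6 to 63.6 CPM at week 15, with 7 called higher and a median log2 fold change of 1.28. Their median sum was 99.7 against 57.2 CPM at week 0 and 91.5 against 59.8 CPM at week 3. At each of these 2 weeks only 1 of the genes was called higher, and the median log2 fold change was 0.18 and 0.30. At week 15 the 10 myeloid genes had 4 calls above and 1 below placebo. The 12 hepatocyte markers summed to 77144 to 156384 against 74765 to 115244 CPM at week 15. No marker list had a defining gene with a median of 0 in either arm. Of the neutrophil genes, 1 of 7 tested was called higher at week 0 and 2 of 8 at week 15. In the summed follow-up counts the 8 neutrophil genes had a median log2 fold change of -2.82. There edgeR called 0 of them and DESeq2 6, and 7 had an unadjusted p under 0.05. The medians there were -0.70 for B and plasma cell, -0.32 for T cell, -0.19 for myeloid and -0.04 for hepatocyte genes. The part of these cells in the follow-up differences of DDIT3 and SDF2L1 was not tested. The 20 muscle genes reached 84028 CPM in 1 wIFN-treated animal at week 0, under the limit set for a muscle-rich biopsy. Their part in the differences of the 10 genes was not tested.

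The deviations of the biopsies from the mean of their own arm and week showed which genes varied together. Over 149 biopsies, HSPA5 and HSP90B1 were closest (Pearson r = 0.856), followed by HSPA5 and SDF2L1 (0.745), HSP90B1 and SDF2L1 (0.712) and HSPA5 and DNAJB9 (0.661). DDIT3 and ATF4 (0.569) and ASNS and ATF4 (0.528) formed the next pairs. XBP1 varied little with HSPA5 (0.295, and 0.105 without the 3 biopsies with muscle), and HERPUD1 had values near 0 with TRIB3 (-0.026) and ASNS (-0.043). The same 3 biopsies moved other pairs, ATF4 with HSPA5 from 0.328 to 0.588 and TRIB3 with HSP90B1 from 0.328 to -0.002. These correlations are descriptions: biopsies of 1 animal share that animal, and all share their library and depth.

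**Figure D5:**
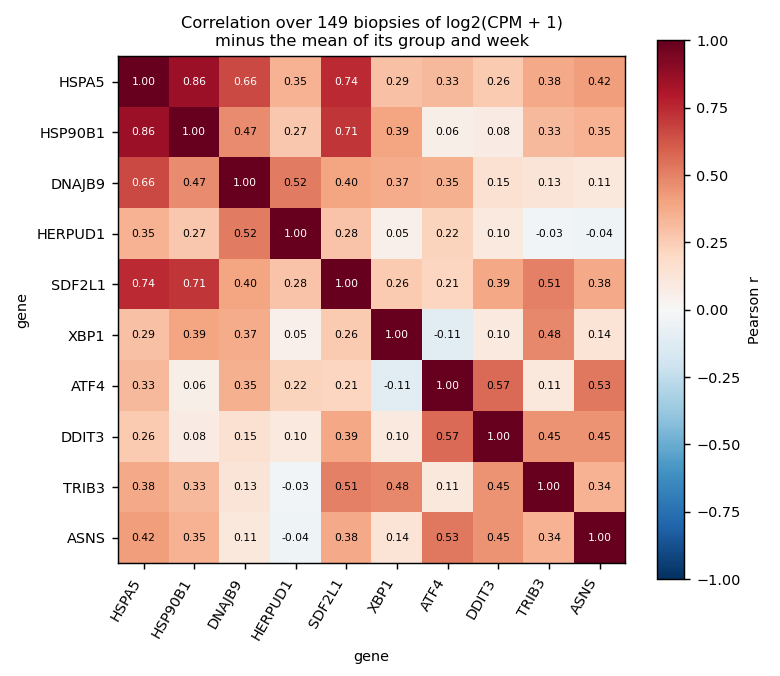
Pearson correlation between the 10 genes over 149 biopsies, on log2(CPM + 1) minus the mean of the arm and week. HSPA5 has the highest values, with HSP90B1 (0.856), SDF2L1 (0.745) and DNAJB9 (0.661), while SDF2L1 with DNAJB9 (0.397) lies below ATF4 with DDIT3 (0.569) and ASNS (0.528).

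Among 13915 genes, those most like HSPA5 by this measure were DNAJB11 (r = 0.918), MANF (0.885), HYOU1 (0.862), SRPRB (0.858) and HSP90B1. The first 3 belong to the ER folding list, and SRPRB encodes a subunit of the signal recognition particle receptor. Those most like ASNS were CARS (0.767), MTHFD2 (0.738), CHAC1 (0.678), GARS (0.627) and NME1 (0.599). CARS and GARS charge tRNA with cysteine and glycine, CHAC1 degrades glutathione, and NME1 is a nucleoside diphosphate kinase. Without the biopsies with muscle the 5 genes nearest to HSPA5 were the same, and of the 5 nearest to ASNS only NME1 moved out, to rank 9, while ATF4 rose from rank 20 to rank 7.

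Animals kept their place to different degrees. The share of the variance of these deviations that lay between animals was largest for SDF2L1 (intraclass correlation 0.42 over 146 biopsies of 23 animals), HERPUD1 (0.33) and ATF4 (0.32), and smallest for XBP1 (0.10). Placebo animal M1005 had the highest mean deviation of SDF2L1, 0.63 over 8 biopsies, and the wIFN-treated M1002 the lowest, -0.51 over 6. M1008 was lowest for HSPA5, at a mean of -0.44 over 8 biopsies, but did not keep this place: at week -3 it had the highest HSPA5 value of the placebo-treated animals, 573 CPM, and at week 11 it had 123 CPM where the others had at least 263 CPM. For ASNS the extremes were M1009 (0.77 over 5 biopsies) and F1024 (-0.49 over 5).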

How the data were processed

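Poly(A) RNA of the biopsies was sequenced by the authors as paired-end reads of 50 nucleotides, demultiplexed with CASAVA, mapped with Bowtie2 to their woodchuck transcriptome assembly and counted with SAMtools. The deposited values are expected counts per gene without normalization (118 of 3368022 entries are fractions) and RPKM values by the authors, used only for the gene lengths that they imply. Gene symbols follow similarity to human, mouse and rat transcripts, and all 10 were found in the RefSeq table of the woodchuck assembly. A gene absent from a run's list was given a count of 0. Virus reads (0.00107 to 4.12% of a biopsy) were kept out of library sizes and tests. Depth was 12072840 to 84805845 reads on genes, which limits precision most for ASNS, TRIB3 and SDF2L1.

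Counts of the 203 runs were added up by biopsy, 164 in all, and rounded: 149 were compared, 7 were of M1004 and 8 were labelled with other weeks or as died. The labels number treatment weeks from 1, and the paper's numbering from 0 is used. Each week had its own fit of both arms by the quasi-likelihood method of edgeR 4.0.16 (R 4.3.3), after filterByExpr and TMM scaling, and p-values were adjusted over all genes tested by the method of Benjamini and Hochberg. Standard errors were taken as the log2 fold change over the root of F. Contrasts between weeks came from 1 fit of all 149 biopsies, where a gene passed at an adjusted p under 0.05. CPM values use the TMM factors of that fit. Samples of 1 animal carry its number: their deviations had a median correlation of 0.308 (450 pairs, 330 over 0.1) against -0.0236 for other animals (4409 pairs, 16232 genes). The animal was therefore used as a replicate block in an alternative fit, with effects relative to week -3. In the fits by week and of the summed follow-up counts each animal gives 1 value, so p-values measure the spread between animals. The main fit of all weeks has no term for the animal. It treats repeated biopsies of an animal as independent, so its p-values do not measure that spread.

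Alternatives used DESeq2 1.42.0, RLE scaling, all genes unfiltered, only the run with most reads per biopsy, M1004 included, sex or lane number as a covariate, no biopsies with muscle, other fold changes, 1 fit of all weeks, the replicate block and each animal left out in turn. The block without muscle was added after seeing the data. Named genes of the 6 related lists are the 2 highest and 2 lowest called log2 fold changes at weeks 0 and 15 with a mean of at least 1 CPM, and likeness took the 5 genes nearest to HSPA5 and to ASNS. In the ER degradation list VIMP is listed in the files as SELS. The 10 genes and all lists were chosen with earlier results of these data known. The tests were checked on simulated data. Tables were made with Python, pandas and numpy.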

Additional observations from a re-analysis of the deposited data

Results flagged for a closer look

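Of 100 combinations of 1 gene with 1 group of 5 to 10 animals, 11 held an animal far from the others. Chance alone flags about 1 in 20 of independent groups. These 100 share animals and biopsies between genes, so an excess cannot be read from the count. In the placebo group M1008 was low for 4 genes at week 11, HSPA5 at 123 CPM (others 263 to 408), HSP90B1 at 326 CPM (448 to 599), HERPUD1 at 86.5 CPM (127 to 175) and ATF4 at 63.6 CPM (101 to 169). The same animal was low for HSPA5 at week 15, at 111 CPM (190 to 266), and for DNAJB9 at week 19, at 36.7 CPM (55.3 to 64.9), and its week 15 value rests on the 2 runs that differed in SDF2L1. Placebo animal M1005 was high for ATF4 at week 19, at 135 CPM (88.4 to 97.3).

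In the wIFN-treated group F1018 was high at week 19 for DNAJB9, at 102 CPM (61.7 to 69.9), and for XBP1, at 297 CPM (180 to 201). F1014 was high for TRIB3 at week 11, at 12.2 CPM (5.63 to 7.58), and without it the difference of TRIB3 at that week was -0.65 (adjusted p = 0.00717), which is called. F1022 was low for SDF2L1 at week 23, at 3.66 CPM (7.42 to 9.79).

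The effect of wIFN-α on TRIB3 differed between week 15 and weeks 0 and 3 by -1.15 on the log2 scale (adjusted p = 0.03 for the test of the difference in edgeR).

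In biopsies that belong to no comparison, some values exceeded all placebo biopsies of the weeks compared. The library labelled as died of F1023 (wIFN-α) had 1569 CPM of HSP90B1 (placebo maximum 1172), 187 CPM of DNAJB9 (165), 118 CPM of SDF2L1 (71.6) and 53.0 CPM of DDIT3 (48.2). That of F1024 (placebo) had 52.5 CPM of DDIT3, and that of M1007 (wIFN-α) had 213 CPM of DNAJB9. A library of M1006 (wIFN-α) labelled week 3 had 57.6 CPM of DDIT3 and 44.5 CPM of TRIB3 (placebo maximum 25.1), and the week 17 library of M1010 (placebo) had 28.4 CPM of TRIB3.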

How the results depend on the processing

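The number of the 10 genes called at week 0 was 3, and it was 1 with lane number as a covariate and 0 at a fold change above 2. At week 3 it was 2, and it was 1 with M1004 included, with lane number as a covariate or without the biopsies with muscle, and 0 at a fold change above 2 and with the animal as a replicate block, with or without those biopsies. At week 7 it was 0, and it was 1 with lane number or with either form of the block and 4 with any fold change. At week 11 it was 0, and 2 with any fold change. At week 15 it was 0, and 1 with M1004, sex, lane number, any fold change or the block, and 2 with the block without muscle. Off treatment it was 0, and 2 in DESeq2, where 756 of all genes were called, or with M1004. For week 15 against weeks 0 and 3 it was 1, and 3 with the block, 2 without muscle and 4 with both. The shares of all genes in these alternative fits of that contrast are not given.

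Leaving out each animal in turn gave 2 to 3 genes called at week 0, 1 to 2 at week 3, 0 to 2 at week 7, 0 to 1 at weeks 11 and 15, 0 to 2 off treatment and 0 to 0 at weeks -3, 19 and 23.

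Of the log2 differences of single genes, animals left out aside, 962 kept direction and side of the threshold, 26 came to pass the call, 11 no longer passed and 51 changed sign. None of those that changed sign passed, before or after, and the cause was not tested. With lane number as a covariate these were HSP90B1 0.13, DNAJB9 0.03, SDF2L1 0.33, XBP1 0.15 and TRIB3 0.01 at week -3, HERPUD1 0.01 at week 0, HSP90B1 0.05, ATF4 0.18 and DDIT3 0.08 at week 3, and SDF2L1 0.06 at week 11 and 0.14 at week 19. With the replicate block, and in parentheses also without muscle, they were HSP90B1 0.02 (0.02) and HERPUD1 0.12 (0.20) at week 0, ATF4 0.19 (0.21) at week 3, HSPA5 0.12 (0.13), SDF2L1 0.50 (0.49) and ATF4 0.11 (0.06) at week 11, SDF2L1 0.20 (0.17) and ATF4 0.10 (0.05) at week 19, and HSPA5 0.19 (0.18), DNAJB9 0.17 (0.15) and TRIB3 0.25 (0.19) at week 23. HSP90B1 at week 3 (0.03) changed sign with the block and DDIT3 at week 3 (0.03) with the block without muscle. For week 15 against weeks 0 and 3 ATF4 gave 0.09 (0.06) and ASNS 0.14 (0.15), with DDIT3 at 0.02 with the block. For week 3 against week 0 HSPA5 gave -0.03 (-0.05), with HSP90B1 at -0.03 without muscle. Without muscle alone ATF4 (0.10) and DDIT3 (0.08) changed sign at week 3. Other changes of sign were DNAJB9 at week 3 with M1004 (-0.06), HERPUD1 at week 19 with sex (-0.04), TRIB3 at week 23 in 1 fit of all weeks (0.00), and ATF4 for week 15 against weeks 0 and 3 with RLE (0.00), M1004 (0.01) or the deepest run (0.00).

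Week 19 had 5 placebo-treated animals. Depth limits ASNS, SDF2L1 and TRIB3 most, at placebo medians of 5.36, 8.89 and 10.3 CPM over weeks 7 to 23. The lane number is that of the deepest run and stands for several physical lanes. The block takes effects relative to week -3, where F1016 and F1018 are the biopsies with most muscle. The counts summed over weeks 19 and 23 hold each animal once and were fitted without the block.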
